A study of Homo sapiens with 15 samples.

Results

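MAL, MAL2, CAV1, CAV2, FLOT1, FLOT2 and LYN encode proteins that build, scaffold or signal from lipid rafts, the cholesterol- and sphingolipid-rich patches of the plasma membrane. These 7 genes, of 19775 with a symbol on the array, were taken because the folate receptor is held in rafts by a lipid anchor and because MAL was lower in both cultures given a 003-type antibody. All 16 probe sets whose single gene symbol was one of the 7 were used. MAL and MAL2 had 1 probe set each, CAV1 and FLOT2 had 2 each, CAV2 and LYN had 3 each, and FLOT1 had 4. The MAL values against the antibody controls chose the set, so they are given as a description with no test. The members were thus chosen by those MAL differences and by their known raft biology.

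Messenger RNA was measured on Affymetrix U133 Plus 2.0 arrays in SKOV3ip1 cells, a human ovarian cancer line of epithelial type, rich in folate receptor alpha (FOLR1). The no-folate culture spent 7 days in medium without folate. The other 4 cultures spent 7 days with 2 to 10 nM folic acid (written nm in the labels). The folate culture got no antibody, the 004 culture got the control antibody, and the remaining cultures got the antibody labelled 003 or the one labelled MORAb003, in each case for 24 hours. It is not stated in the labels if the names 003 and MORAb003 stand for 1 antibody. Sample titles name the folate supplement with the abbreviation MTF or 5-MTF, which the labels do not explain. Each condition was 1 culture and 1 RNA extract, and 3 aliquots of each extract were hybridised, giving 15 arrays. Every p-value between extracts therefore compares extracts through their hybridisation error and not conditions through separate cultures. In such bulk RNA, fewer cells making a transcript and less transcript per cell cannot be told apart.

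MAL is a small protein that crosses the membrane several times and carries raft-associated cargo to the apical surface of epithelial cells, and MAL2 serves the route that brings cargo there from the basolateral side. CAV1 is the main structural protein of caveolae, the flask-shaped invaginations of the membrane, and CAV2 is its hetero-oligomer partner. FLOT1 and FLOT2 form flotillin assemblies that define rafts separate from caveolae. LYN is a SRC-family tyrosine kinase held at the inner leaflet of the membrane by lipid tails, where proteins with a glycosylphosphatidylinositol (GPI) anchor such as FOLR1 can signal through it.

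The promoters of MAL, CAV1 and CAV2 are shown because MAL had the lowest levels under the 003-type antibodies and because CAV1 and CAV2 are neighbours on chromosome 7 with 0 protein-coding genes between them. Both CAV1 probe sets and 2 of the 3 CAV2 probe sets had their highest mean in MORAb003, and the other CAV2 probe set was lower there than in folate. Each line gives the 250 bases before the first listed start in RefSeq (GRCh38.p14), 5′ to 3′ on the plus strand, with the GC box GGGCGG on either strand in capitals. RefSeq lists 3 starts for CAV1 and 2 for CAV2.
MAL, chr2:95025458-95025707: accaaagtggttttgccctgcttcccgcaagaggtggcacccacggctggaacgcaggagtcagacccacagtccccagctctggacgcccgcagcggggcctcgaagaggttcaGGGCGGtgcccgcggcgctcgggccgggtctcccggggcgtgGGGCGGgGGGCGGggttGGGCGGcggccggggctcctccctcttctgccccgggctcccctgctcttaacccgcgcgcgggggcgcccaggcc
CAV1, chr7:116524759-116525008: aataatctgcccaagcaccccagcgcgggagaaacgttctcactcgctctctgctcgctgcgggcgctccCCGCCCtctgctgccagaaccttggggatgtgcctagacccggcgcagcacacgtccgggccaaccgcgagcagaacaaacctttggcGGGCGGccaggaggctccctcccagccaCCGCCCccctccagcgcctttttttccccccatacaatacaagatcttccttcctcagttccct
CAV2, chr7:116499488-116499737: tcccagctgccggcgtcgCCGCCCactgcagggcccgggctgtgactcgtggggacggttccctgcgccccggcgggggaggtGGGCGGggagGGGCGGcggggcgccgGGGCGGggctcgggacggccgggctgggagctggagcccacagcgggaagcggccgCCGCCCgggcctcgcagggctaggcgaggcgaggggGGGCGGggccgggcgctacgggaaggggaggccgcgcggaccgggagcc
The MAL stretch held 4 GC boxes and 26 CpG dinucleotides at 75.2% G or C. The CAV1 stretch held 3 GC boxes and 18 CpG at 63.6%, and the CAV2 stretch held 6 GC boxes and 35 CpG at 83.2%. Among all 35116 promoters of this length, 42.6% held a GC box, and the median number of CpG was 11. Neither the AP-1 motif TGANTCA (6.57% of all promoters), the sterol element TCACNCCAC (0.883%) nor the TATA box TATAAA (10.7%), each searched on both strands, had a match in the 3 stretches. These matches describe letters in a window and are not binding sites.

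The arrays of 1 extract correlated at 0.993 or more, except in the 004 extract, where the lowest correlation was 0.948. That value involved replicate 1 of 004, which was the lowest array of its extract in 14 of the 16 member probe sets. Over all 16, the mean of replicates 2 and 3 exceeded it by a median of 0.49 on the log2 scale and by 1.83 at most. Member values and calls are given also without that array where leaving it out moved a difference by over 1.5 times, turned its sign or changed a call. The difference between 3′ and 5′ actin control probe sets, a measure of how much of each transcript was labelled, was 4.09 ± 0.157 (SD, n = 3) without folate, 3.24 ± 0.129 in folate, 4.02 ± 0.102 in 003, 3.46 ± 0.312 in 004 and 2.42 ± 0.131 in MORAb003, and GAPDH had the same highest pair and the same lowest extract. Its part in the results was not tested. Of 13 ovarian and epithelial markers, 11 or 12 reached the array median (log2 6.60) in each extract, PAX8 stood between 12.72 and 12.96, and MSLN was below the median throughout. Of 9 leukocyte markers on the array, 5 reached the median in each extract except MORAb003, where 4 did; CD2 was the highest of them (7.46 to 7.80), and PTPRC, the pan-leukocyte marker, was below the median in every extract (6.32 to 6.54). The summed level of these 9 lay between 9.83 and 10.47 on the log2 scale, with the highest value in 004, and that of the 9 fibroblast and endothelial markers, of which 6 or 7 reached the median, between 10.59 and 11.04. The part of these markers in the results was not tested.

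MAL separated the extracts into a high and a low set. Its probe set 204777_s_at gave log2 values of 12.72, 12.85 and 12.85 in the no-folate arrays, 12.67, 12.69 and 12.75 in folate, 12.23, 12.76 and 12.70 in 004, 11.98, 11.94 and 12.00 in 003, and 11.77, 11.83 and 11.71 in MORAb003. All 6 arrays of the 003-type extracts lay below all 9 other arrays, replicate 1 of 004 included. The 003 extract was lower than folate by 0.73 (1.66-fold) and than 004 by 0.59 (1.51-fold), and the MORAb003 extract was lower than folate by 0.93 (1.90-fold) and than 004 by 0.79 (1.73-fold). Both antibody extracts share these control arrays. Without replicate 1 of 004, the differences from 004 were -0.76 for 003 and -0.96 for MORAb003. Within the first array date, which holds replicates 1 and 2, the differences from folate were -0.72 and -0.88, and within the second they were -0.75 and -1.03.

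The comparisons that did not choose MAL are given here with their tests. Their sizes are not ranked against the gaps above, since the rule chose MAL by those gaps. MAL was 0.11 higher without folate than with it (SE 0.12, adjusted p = 0.749, limma with Benjamini-Hochberg adjustment over all 30127 probe sets tested), and the arrays overlapped. The 004 extract differed from folate by -0.14 (SE 0.12, adjusted p = 0.499), and by 0.03 without replicate 1 of 004. The 003 extract was 0.20 above MORAb003 (SE 0.12, adjusted p = 0.192), with no overlap between their arrays. Without replicate 1 of 004, which enters the shared estimate of the spread, the last of these had an adjusted p of 0.0174 at the same small difference.

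**Figure D1:**
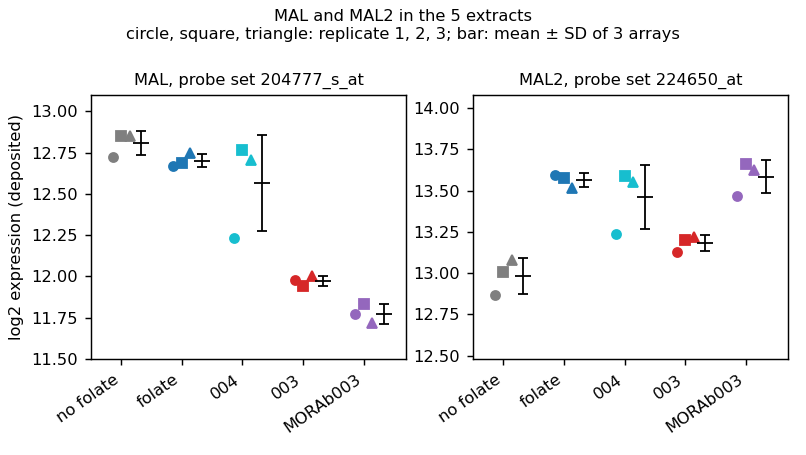
Deposited log2 expression of the MAL and MAL2 probe sets in each array of the 5 extracts; symbols mark replicates 1 to 3, bars the mean ± SD of 3 arrays. The 003 and MORAb003 arrays of MAL lie between 11.71 and 12.00, below the other 9 arrays, whereas for MAL2 the no-folate arrays are lowest.

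MAL2 followed another order, with its lowest level in the cells without folate. Probe set 224650_at read 12.87, 13.00 and 13.08 in no folate, 13.59, 13.58 and 13.51 in folate, 13.24, 13.59 and 13.55 in 004, 13.13, 13.20 and 13.22 in 003, and 13.47, 13.66 and 13.63 in MORAb003. The no-folate arrays lay below every other array, and the 003 arrays below every folate and MORAb003 array. Here and below, a probe set is called when its adjusted p is under 0.05 and its difference at least 1.5-fold. MAL2 was lower without folate by 0.58 (SE 0.11, 1.49-fold, adjusted p = 0.0066), which passed the p threshold and fell just short of the fold minimum, so it was not called. The 003 extract was lower than MORAb003 by 0.40 (SE 0.11, adjusted p = 0.00827) and lower than folate by 0.38 (adjusted p = 0.0679, and 0.00147 without replicate 1 of 004), both under 1.5-fold. MORAb003 differed from folate by 0.02 (SE 0.11, adjusted p = 0.91). The MAL2 means thus ran opposite to the actin end difference, which was largest in the no-folate and 003 extracts. With all arrays, the means of CAV1 212097_at and CAV2 203324_s_at had the same order of extracts as MAL2. No other member probe set had that order. The part of the actin end difference in it was not tested.

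The number of member probe sets called was small in every comparison. Between no folate and folate 1 of 15 was called, lower without folate, against 3.96% of all probe sets tested. For the 003 extract 0 of 14 members other than MAL were called against 004, where the share over all probe sets was 3.54%, and 0 of 14 against folate, where it was 2.23%. At an unadjusted p under 0.05 in limma, 3 of 14 passed in each of these comparisons, where 21.9% and 20.8% of all probe sets did. At that threshold 6 of 15 passed between no folate and folate, where 19.1% of all did, and some of the 6 read the same gene. It was 6 of 14 for MORAb003 against 004 (48.5% of all) and 4 of 14 for MORAb003 against folate (28.8%). Between 003 and MORAb003 it was 5 of 15 (52.5%). For the MORAb003 extract 2 of 14 were called against 004, 1 in each direction (background 20.1%), and 1 of 14 against folate, lower in MORAb003 (background 7.81%). Between 003 and MORAb003 2 of 15 were called, 1 in each direction, where the background was 24.9%. Between 004 and folate 0 of 15 were called and 0% of all probe sets, with 0 calls also without replicate 1 of 004 and 1 of 15 members at an unadjusted p under 0.05 in limma, as were 8.9% of all probe sets. Without replicate 1 of 004, 3 members were called in MORAb003 against 004, 1 higher and 2 lower (background 13.1%). The other member counts were the same without it, while the background was 7.33% for no folate against folate, 6.35% for 003 against 004, 6.89% for 003 against folate, 11.3% for MORAb003 against folate and 26.3% for 003 against MORAb003.

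With all arrays, each of these counts rested on at most 2 probe sets, and the calls came from CAV2 203323_at and LYN 202626_s_at. Without replicate 1 of 004, CAV2 213426_s_at was also called, lower in MORAb003 than in 004. CAV2 was then called in both directions in that comparison, since 203323_at was called higher. The median difference over the members counted was -0.17 for no folate against folate (0.02 over all probe sets tested), -0.15 for 003 against folate (0.04 over all), 0.05 for MORAb003 against folate (-0.04 over all) and 0.10 for MORAb003 against 004 (0.01 over all). These medians were -0.26, -0.19, 0.08 and 0.05 without replicate 1 of 004. A probe set of FLOT2, 211299_s_at, stayed under the array median in every extract (highest array 6.35) and was not tested, and 15 of 16 passed that filter. FLOT1 had 2 probe sets that passed through 1 extract each. FLOT1 213819_s_at passed through 004, where replicate 1 read 7.01 and the others 6.41 and 6.40. FLOT1 208748_s_at passed through 003 (mean 6.63), where it was highest, with means of 6.46 to 6.54 in the other extracts.

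**Figure D2:**
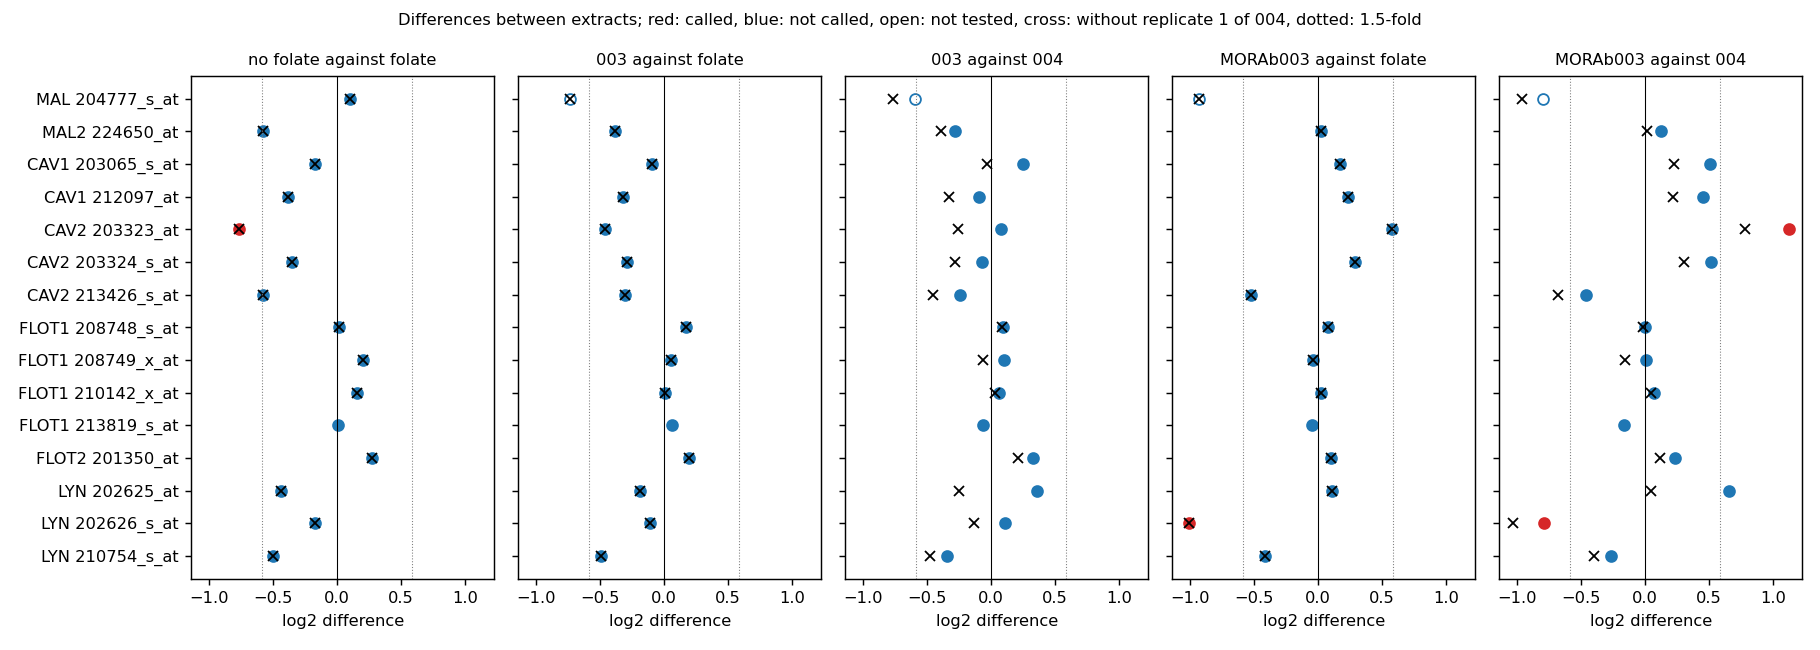
Log2 differences of the 15 tested member probe sets in 5 comparisons; filled red points were called, filled blue points were not, open circles are the MAL values that chose the set, crosses are values without replicate 1 of 004 (absent where the probe set was then too dim to test), and dotted lines mark 1.5-fold. CAV2 203323_at and LYN 202626_s_at are the probe sets called with all arrays, and they lie on opposite sides of 0 in the MORAb003 panels.

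In 4 of the 5 caveolin probe sets the highest mean was in MORAb003, and in all 5 the no-folate mean was under the folate mean. MORAb003 was also the extract with the smallest actin end difference, whose part in these levels was not tested. CAV1 212097_at, its brightest probe set, read 11.78, 11.75 and 11.83 in no folate, 12.22, 12.10 and 12.17 in folate, 11.47, 12.22 and 12.13 in 004, 11.84, 11.84 and 11.86 in 003, and 12.27, 12.52 and 12.40 in MORAb003. Replicate 1 of 004 was the lowest of all 15 arrays; apart from it, the no-folate and 003 arrays lay below 11.9 and all folate, 004 and MORAb003 arrays above 12.0. No CAV1 difference reached 1.5-fold. The 003 extract was lower than MORAb003 by 0.55 (SE 0.15, adjusted p = 0.0107) and MORAb003 was higher than 004 by 0.46 (adjusted p = 0.0333), or by 0.22 (adjusted p = 0.0425) without replicate 1 of 004. The no-folate extract was lower than folate by 0.38 (adjusted p = 0.185, and 0.00119 without replicate 1 of 004), and 003 was lower than folate by 0.32 (adjusted p = 0.257, and 0.00446 without that array).

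The second CAV1 probe set, 203065_s_at, read 10.25, 10.23 and 10.22 in no folate, 10.36, 10.49 and 10.35 in folate, 9.50, 10.35 and 10.35 in 004, 10.36, 10.20 and 10.39 in 003, and 10.49, 10.49 and 10.73 in MORAb003. Its differences had the sign of those of 212097_at in 6 of the 7 comparisons; in 003 against 004 it was 0.25 where the other was -0.09, and without replicate 1 of 004 these were -0.03 and -0.33. MORAb003 was higher than 004 by 0.51 in this probe set (SE 0.18, adjusted p = 0.0401), and by 0.23 (adjusted p = 0.0581) without replicate 1 of 004.

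Among the members tested, CAV2 had the largest called difference. Probe set 203323_at read 10.22, 10.04 and 10.41 in no folate, 10.98, 10.93 and 11.05 in folate, 9.76, 10.75 and 10.81 in 004, 10.56, 10.45 and 10.56 in 003, and 11.42, 11.67 and 11.61 in MORAb003. The MORAb003 arrays were above all 12 others, and the no-folate arrays were below every folate and 003 array. CAV2 203323_at was called higher in MORAb003 than in 004 by 1.12 (SE 0.21, 2.18-fold, adjusted p = 0.00186), and by 0.78 (adjusted p = 2.83e-05) without replicate 1 of 004. It was called lower in 003 than in MORAb003 by 1.04 (SE 0.21, 2.06-fold, adjusted p = 0.00157). MORAb003 was 0.58 above folate (1.49-fold, adjusted p = 0.0861, and 0.000137 without replicate 1 of 004), which missed the fold minimum either way.

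Without folate CAV2 203323_at was called lower than with folate, by 0.76 (SE 0.21, 1.70-fold, adjusted p = 0.0478). The adjusted p was 1.84e-05 without replicate 1 of 004. It was 0.067 with no filter on dim probe sets and reached 0.185 when other single arrays were left out, so the call depended on which arrays entered the shared estimate of the spread, while the difference itself stayed between -0.86 and -0.67. The 003 extract was 0.46 below folate (adjusted p = 0.23, and 0.00143 without replicate 1 of 004).

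The other CAV2 probe sets split. Probe set 203324_s_at read 10.98, 10.97 and 11.46 in no folate, 11.50, 11.51 and 11.45 in folate, 10.84, 11.42 and 11.53 in 004, 11.16, 11.10 and 11.33 in 003, and 11.71, 11.69 and 11.94 in MORAb003. It was again highest in MORAb003, by 0.52 over 004 (SE 0.17, adjusted p = 0.0316) and by 0.58 over 003 (adjusted p = 0.0141), both just under the fold minimum. The difference from 004 was 0.30 (adjusted p = 0.0659) without replicate 1 of 004. The dimmer probe set 213426_s_at read 7.38, 7.40 and 7.08 in no folate, 7.87, 8.01 and 7.71 in folate, 7.37, 8.19 and 7.84 in 004, 7.75, 7.39 and 7.53 in 003, and 7.19, 7.24 and 7.58 in MORAb003. Its MORAb003 arrays lay below all folate arrays, the reverse of the other pair, by 0.52 (SE 0.18, adjusted p = 0.0767). Against 004 it was 0.46 lower (adjusted p = 0.0635), and without replicate 1 of 004 it was called, 0.68 lower (adjusted p = 0.0017).

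All 3 CAV2 probe sets were lower without folate than with it, by 0.35 to 0.76. In MORAb003 they went apart: the within-array gap between 203323_at and 213426_s_at was 4.23 ± 0.204 (SD, n = 3) there and between 2.64 and 3.13 on average in the other 4 extracts. The actin end difference of MORAb003 was also the smallest of the 5, and its part in the split was not tested. Which stretch of the transcript each probe set reads was not used here.

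**Figure D3:**
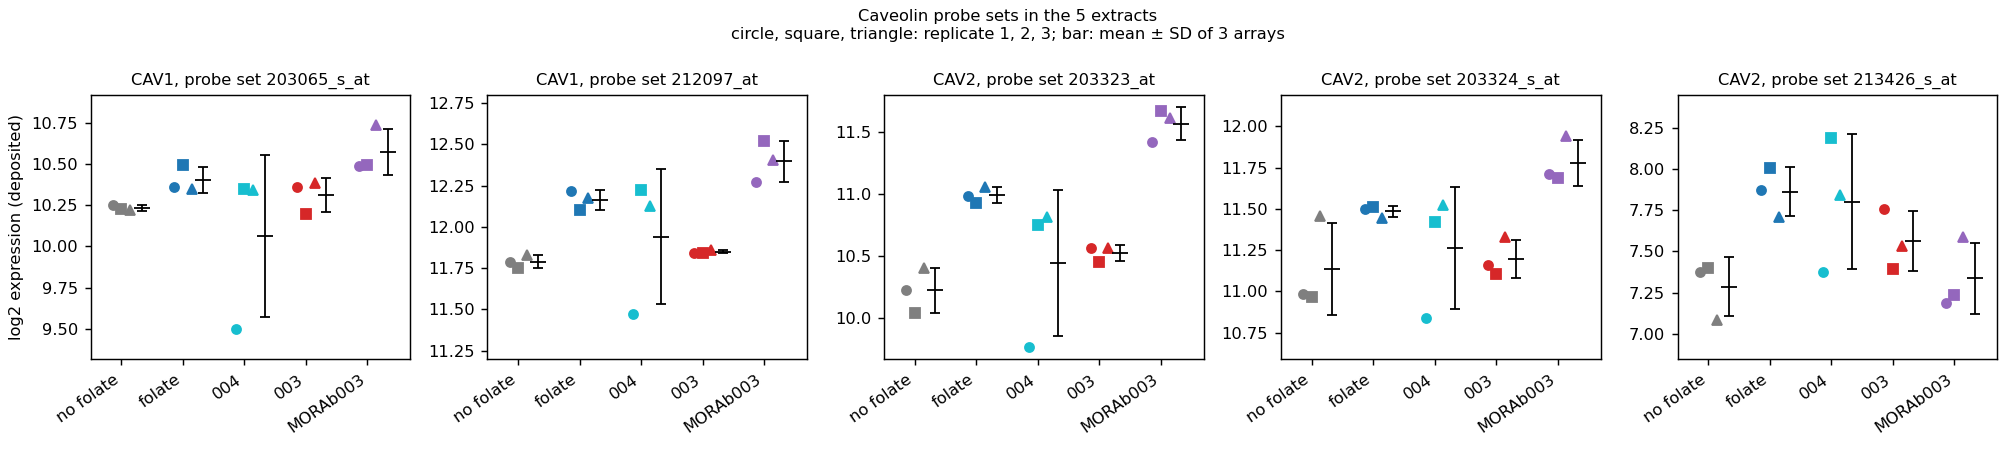
Deposited log2 expression of the 2 CAV1 and 3 CAV2 probe sets in each array; symbols mark replicates 1 to 3, bars the mean ± SD of 3 arrays, and each panel has its own axis range. MORAb003 is highest in 4 panels and among the lowest in CAV2 213426_s_at, and replicate 1 of 004 stands below its extract in all 5.

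No flotillin probe set was called. The 4 FLOT1 probe sets differed by 0.21 at most in any of the 7 comparisons and none passed the p threshold. The brightest FLOT2 probe set, 201350_at, read 10.65, 10.78 and 10.69 in no folate, 10.33, 10.43 and 10.55 in folate, 10.07, 10.44 and 10.40 in 004, 10.70, 10.70 and 10.51 in 003, and 10.49, 10.61 and 10.51 in MORAb003. The no-folate arrays were above the folate and 004 arrays. No difference of this probe set was called: it was 0.27 higher without folate than with it (adjusted p = 0.19) and 0.33 higher in 003 than in 004 (adjusted p = 0.0955), or 0.21 (adjusted p = 0.0947) without replicate 1 of 004. FLOT1 208749_x_at and 210142_x_at were likewise 0.21 (adjusted p = 0.426) and 0.16 (adjusted p = 0.327) higher without folate, with no overlap between the arrays. These probe sets carry the suffix x, which Affymetrix gives to designs that can cross-hybridise.

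LYN was called lower in the MORAb003 extract at 1 of its 3 probe sets, and 2 of the 3 had a lower mean there than in folate and in 004. Probe set 202626_s_at, the brightest, read 10.04, 10.26 and 10.19 in no folate, 10.46, 10.22 and 10.33 in folate, 9.64, 10.32 and 10.40 in 004, 10.19, 10.23 and 10.26 in 003, and 9.39, 9.30 and 9.30 in MORAb003. The MORAb003 arrays lay below all 12 others, and outside replicate 1 of 004 the other extracts spanned 10.04 to 10.46. LYN 202626_s_at was called lower in MORAb003 than in folate by 1.01 (SE 0.16, 2.01-fold, adjusted p = 0.00137) and than in 004 by 0.79 (SE 0.16, 1.73-fold, adjusted p = 0.00268), or by 1.03 (adjusted p = 7.5e-07) without replicate 1 of 004. It was called 0.90 higher in 003 than in MORAb003 (SE 0.16, 1.86-fold, adjusted p = 0.00061), and 003 differed from folate by -0.11 (adjusted p = 0.735).

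Within the first array date the LYN 202626_s_at difference of MORAb003 from folate was -0.99 (adjusted p = 0.0799) and within the second -1.03, where 1 array per extract allows no test. Against 004 it was -0.63 (adjusted p = 0.0702) and -1.11, and the difference of 003 from MORAb003 was 0.87 (adjusted p = 0.0246) and 0.97. The sign was thus the same within each date, and against both controls the p threshold was missed with the 10 arrays of the first.

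Neither of the other LYN probe sets was called, and their signs differed. Probe set 202625_at read 9.04, 8.94 and 9.10 in no folate, 9.62, 9.26 and 9.50 in folate, 7.70, 9.51 and 9.55 in 004, 9.23, 9.20 and 9.40 in 003, and 9.48, 9.57 and 9.67 in MORAb003, so that MORAb003 was 0.11 above folate (SE 0.34, adjusted p = 0.858). Probe set 210754_s_at read 8.82, 9.10 and 9.06 in no folate, 9.70, 9.30 and 9.47 in folate, 9.08, 9.39 and 9.57 in 004, 8.91, 8.94 and 9.16 in 003, and 9.20, 9.13 and 8.90 in MORAb003. Here no folate (-0.50, adjusted p = 0.0629), 003 (-0.49, adjusted p = 0.0814) and MORAb003 (-0.41, adjusted p = 0.0802) had lower means than folate by a similar amount. None passed the p threshold with all arrays, and the MORAb003 arrays lay below all folate arrays. With 1 array left out at a time, these adjusted p-values in limma ran from 0.0036 to 0.287, 0.0043 to 0.344 and 0.0092 to 0.236. Against 004 the MORAb003 mean was 0.27 lower (-0.27, adjusted p = 0.158), or 0.40 lower (-0.40, adjusted p = 0.0203) without replicate 1 of 004, so this probe set had the sign of 202626_s_at against both controls. The within-array gap between 202626_s_at and 202625_at was -0.24 ± 0.146 (SD, n = 3) in MORAb003, against means of 0.88 to 1.20 in the other 4 extracts. As for CAV2, the extract in which these probe sets parted was the one with the smallest actin end difference.

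**Figure D4:**
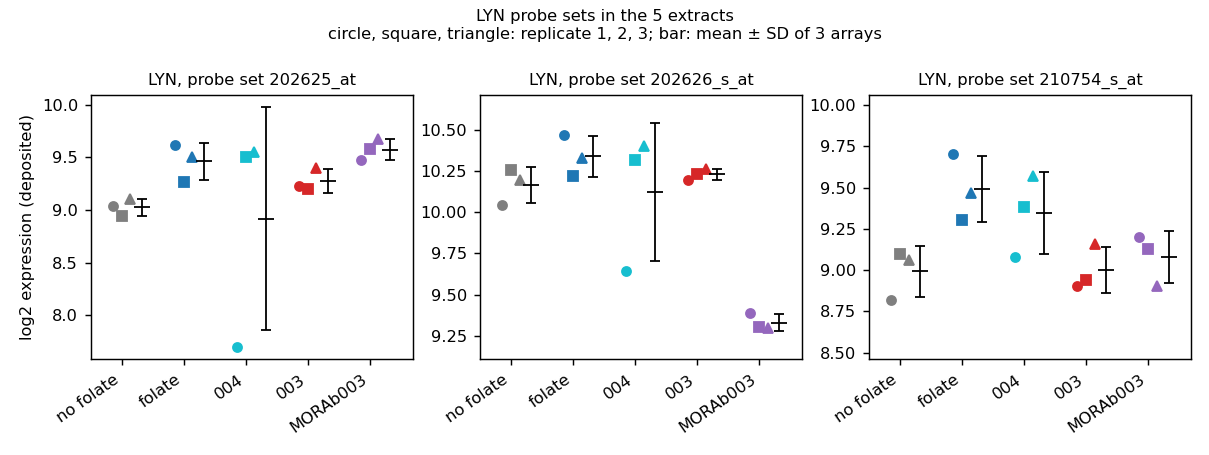
Deposited log2 expression of the 3 LYN probe sets in each array; symbols mark replicates 1 to 3, bars the mean ± SD of 3 arrays, and each panel has its own axis range. MORAb003 is lowest at 202626_s_at (9.30 to 9.39) and not at the other probe sets, and replicate 1 of 004 reads 7.70 at 202625_at.

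The genes whose means over the 5 extracts were most like a member's were ranked by the root mean square difference of centred log2 means among 24973 single-symbol probe sets. For MAL these were MT2A (0.148), GPER1 (0.178), MT1F (0.182), MT1X (0.189) and SERINC2 (0.193). MT2A, MT1F and MT1X are metallothioneins, small zinc-binding proteins, and MT2A averaged 12.42 in no folate, 12.20 in folate, 11.95 in 004, 11.59 in 003 and 11.61 in MORAb003. For CAV1 212097_at they were NEK9 (0.0121), RAP2B (0.0208), CAV2 through 203324_s_at (0.0224), SLC37A4 (0.0244) and ATF7 (0.0248), so the partner caveolin was among the 5. For LYN 202626_s_at they were KPNB1 (0.0614), MPDU1 (0.0758), PIN4 (0.0807), PSMA7 (0.0837) and LAMP1 (0.0854). Closeness over 5 extracts of 1 culture each is a description and carries no test.

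A fit on extract means, in which separate cultures stand as replicates, gave no calls. It set both 003-type extracts against the folate and 004 extracts, and no folate against the same controls, with 2 residual degrees of freedom. It assumed that 003 and MORAb003 were 1 treatment and that folate and 004 were equal controls, which the labels do not state. The gaps within those pairs made up the residual, so the fit could hardly call any probe set. Its lack of calls is therefore no evidence about the members. With limma 0% of probe sets were called in either comparison (0% and 0%), and at an unadjusted p under 0.05 there were 94 and 431 of the 30127 probe sets tested, with 0 of 14 and 0 of 15 members among them. The MAL difference in the first was -0.76. CAV2 203323_at differed by 0.33 there, since 003 and MORAb003 lay on opposite sides of folate, and MAL2 by -0.53 without folate (SE 0.28, adjusted p = 1).

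Other genes of the raft and caveola machinery were examined as 6 lists, each gene through its brightest probe set. The shares of all probe sets called, given above for each comparison, are the background for the list counts too. Among the MAL relatives, the MARVEL-domain family to which MAL belongs, 11 of 13 genes were tested. CMTM6, a MARVEL protein known for keeping PD-L1 at the cell surface, was called lower without folate (-0.89, SE 0.22, adjusted p = 0.0272), lower in 003 than in folate (-0.96, adjusted p = 0.032) and lower in 003 than in MORAb003 (-1.28, adjusted p = 0.000462). Its arrays read 9.66, 9.82 and 10.03 in no folate and 9.76, 9.70 and 9.87 in 003, against 10.61 to 10.88 in folate and 11.03 to 11.11 in MORAb003, with no overlap between the low and the high pair. CMTM6 was the 1 relative called in those 3 comparisons, and CMTM6 (0.65) and MYADM (0.64) were the 2 called higher in MORAb003 than in 004. Both lost that call without replicate 1 of 004 (0.30 and 0.37). The median over the tested relatives was 0.08 without folate (0.02 over all probe sets), 0.04 for 003 against folate (0.04 over all) and 0.29 for MORAb003 against 004 (0.01 over all), or 0.05 without replicate 1 of 004.

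The cavins and their partners coat and shape caveolae. Of 9 tested cavin, EHD, PACSIN and dynamin genes 0 were called between no folate and folate and 0 between 003 and folate. CAVIN3, a cavin that binds protein kinase C delta, was called lower in MORAb003 than in folate (-0.63, SE 0.19, adjusted p = 0.0416) and higher in 003 than in MORAb003 (1.13, adjusted p = 0.000412), the opposite sign to CAV2 203323_at in the same comparisons. Its arrays read 9.83, 9.67 and 9.85 in no folate, 9.15, 9.44 and 9.20 in folate, 8.34, 9.04 and 9.33 in 004, 9.73, 9.73 and 9.83 in 003, and 8.62, 8.51 and 8.76 in MORAb003. CAV2 203323_at was itself not called in MORAb003 against folate. CAV2 213426_s_at had the sign of CAVIN3 in both comparisons (-0.52 and 0.22) and was called in neither. PACSIN3, a membrane-bending protein, was also called higher in 003 than in MORAb003 (0.62). CAVIN3 (0.86), EHD1 (0.64) and PACSIN3 (0.59) were called higher in 003 than in 004, and without replicate 1 of 004 none of them was (0.58, 0.39 and 0.42). The list median for 003 against MORAb003 was 0.35, against 0.10 over all probe sets.

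The flotillin relatives, which share the SPFH domain, had 7 of 8 genes tested and 0 called between no folate and folate, 003 and folate, 003 and 004, or MORAb003 and folate. ERLIN2 and ERLIN1, which sit in raft-like domains of the endoplasmic reticulum, were called higher in MORAb003 than in 004 (1.27 and 0.71) and lower in 003 than in MORAb003 (-1.26 and -0.73), while the mitochondrial prohibitin PHB1 was called higher in 003 than in MORAb003 (0.70). STOML2 (0.63) was also called higher than in 004. Without replicate 1 of 004, ERLIN2 stayed called higher there (0.77, adjusted p = 0.000236), ERLIN1 (0.47) and STOML2 (0.31) did not, and PHB1 was called lower (-0.62). ERLIN2 was then also called higher in MORAb003 than in folate (0.71). The median over the list for MORAb003 against 004 was 0.25, and 0.16 without that array.

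Of the SRC family and raft adaptors 13 of 15 genes were tested. GNAI1, a lipid-anchored inhibitory G-protein subunit, was, like CAV2 203323_at, highest in MORAb003. It read 11.16, 11.21 and 11.48 in no folate, 11.91, 11.63 and 11.82 in folate, 11.01, 11.64 and 11.60 in 004, 11.07, 11.06 and 11.10 in 003, and 12.36, 12.49 and 12.56 in MORAb003. GNAI1 was called lower in 003 than in folate (-0.71, SE 0.15, adjusted p = 0.026), higher in MORAb003 than in folate (0.69, adjusted p = 0.0107) and than in 004 (1.06, adjusted p = 0.000386), and lower in 003 than in MORAb003 (-1.40, adjusted p = 2.17e-05).

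YES1, a SRC-family kinase like LYN, was called in the opposite direction to LYN 202626_s_at. It was called higher in MORAb003 than in 004 (0.69, adjusted p = 0.00506; not called at 0.46 without replicate 1 of 004) and lower in 003 than in MORAb003 (-0.77, adjusted p = 0.00157). Its MORAb003 arrays read 11.58, 11.67 and 11.81 and its 003 arrays 10.91, 10.86 and 10.98. The contrast holds for that LYN probe set. LYN 202625_at, not called, had the sign of YES1 in both comparisons (0.66 and -0.30). LYN 210754_s_at, not called, had it in 003 against MORAb003 (-0.08) and not in MORAb003 against 004 (-0.27). GNAI3 was called lower without folate (-0.59, adjusted p = 0.0477). The adaptor PAG1 was called lower in 003 than in folate without replicate 1 of 004 (-0.63) and not with all arrays. CSK, the kinase that restrains the SRC family, was called higher in 003 than in 004 (0.72), and not without replicate 1 of 004 (0.43). In no comparison were more than 2 of the 13 called, and the list medians lay between -0.04 and 0.09.

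FOLR1 itself, the GPI-anchored target of MORAb003, was not called in any comparison. It read 13.67, 13.87 and 13.85 in no folate, 13.45, 13.63 and 13.50 in folate, 13.19, 13.57 and 13.76 in 004, 13.74, 13.83 and 13.82 in 003, and 14.04, 14.11 and 14.03 in MORAb003. The MORAb003 arrays were the highest, by 0.53 over folate (SE 0.13, adjusted p = 0.0146) and 0.55 over 004 (adjusted p = 0.00573), under 1.5-fold. Of 17 tested GPI-anchored genes, CD55, a complement inhibitor, was called higher in MORAb003 than in folate (1.38, SE 0.30, adjusted p = 0.0101), in 004 (2.06) and in 003. LY6E was called higher than in folate (0.60) and in 004 (0.88), and the virus-tethering protein BST2 lower than in folate (-0.59). ALPP was called lower than in 004 (-0.70; not called without replicate 1 of 004, -0.55).

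Among the GPI-anchored genes, between 003 and MORAb003 2 were called higher in 003 and 2 lower, with CD55 (-1.75), BST2 (0.89) and the prion protein PRNP (-0.87) as the largest. CD24, a small mucin-like protein, was called lower without folate (-0.62, SE 0.09, adjusted p = 0.00142), with arrays at 13.39, 13.54 and 13.52 against 14.06 to 14.13 in folate. GPC1, a glypican, was called higher in 003 than in 004 (0.67), and not without replicate 1 of 004 (0.55). Without that array PRNP was called lower in 003 than in folate (-0.60) and BST2 lower in MORAb003 than in 004 (-0.64). The list median for MORAb003 against folate was 0.11, against -0.04 over all probe sets.

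The enzymes that make and turn over raft sphingolipids were mostly higher in MORAb003 where they were called, as were the calls over the whole array. Of 17 tested, 7 were called higher in MORAb003 than in 004 and 0 lower (list median 0.45, against 0.01 over all probe sets). Over all probe sets 20.1% were called there, 5316 higher and 742 lower. Without replicate 1 of 004, 4 of the 17 were called higher and 0 lower (median 0.15). The share over all probe sets was then 13.1%, 3179 higher and 709 lower. The largest of the 17 were the sphingomyelin synthases SGMS2 (1.87) and SGMS1 (1.47) and the glucosylceramide synthase UGCG (1.34), which without that array were 1.25, 0.95 and 1.08. Against folate, UGCG (0.83, SE 0.17, adjusted p = 0.00665) and the acid ceramidase ASAH1 (0.66, adjusted p = 0.0239) were called higher, and 0 lower. Without replicate 1 of 004, SGMS2 (1.14) and SGMS1 (0.83) were called higher as well. The share over all probe sets against folate was 7.81% (1826 higher, 528 lower), and 11.3% without that array (2758 higher, 590 lower). UGCG read 10.73, 10.63 and 10.84 in no folate, 11.69, 11.51 and 11.62 in folate, 10.58, 11.39 and 11.32 in 004, 11.11, 11.01 and 11.26 in 003, and 12.45, 12.52 and 12.34 in MORAb003.

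UGCG was also called lower without folate (-0.87, adjusted p = 0.00892), as 1 of the 17. The count was 3 of 17 without replicate 1 of 004, with SGMS1 (-0.89) and SPTLC1 (-0.66) added. Between 003 and MORAb003 5 of the 17 were called lower in 003 and 1 higher, with SGMS2 (-1.90), SGMS1 (-1.75) and UGCG (-1.31) as the largest and a list median of -0.28. Over all probe sets 24.9% were called in that comparison, 2267 higher in 003 and 5220 lower. Without replicate 1 of 004, 6 were called lower in 003 and 1 higher, where the share over all probe sets was 26.3%. Between 003 and folate 0 were called (median -0.18); without replicate 1 of 004, SGMS1 (-0.92) and SGMS2 (-0.76) were called lower.

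Which raft genes were called in 003 against 004 depended on replicate 1 of 004. With all arrays 5 genes of these lists were called higher in 003 and 0 lower, and over the whole array 893 probe sets were called higher and 172 lower. Without it 0 of the list genes were called higher, the 5 keeping differences of 0.39 to 0.58, and CMTM6 (-0.98), PAG1 (-0.69), SPTLC1 (-0.62), SGMS1 (-0.80) and SGMS2 (-0.65) were called lower, while 298 probe sets were higher and 1582 lower over the array (6.35% called). Of the 6 list medians 5 were above 0 with and without that array, and that of the sphingolipid enzymes went from 0.03 to -0.14. PAG1 and SPTLC1 were named after these values were seen. In the same comparison the members had 0 calls either way, with a median of 0.07 and, without that array, of -0.25.

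**Figure D5:**
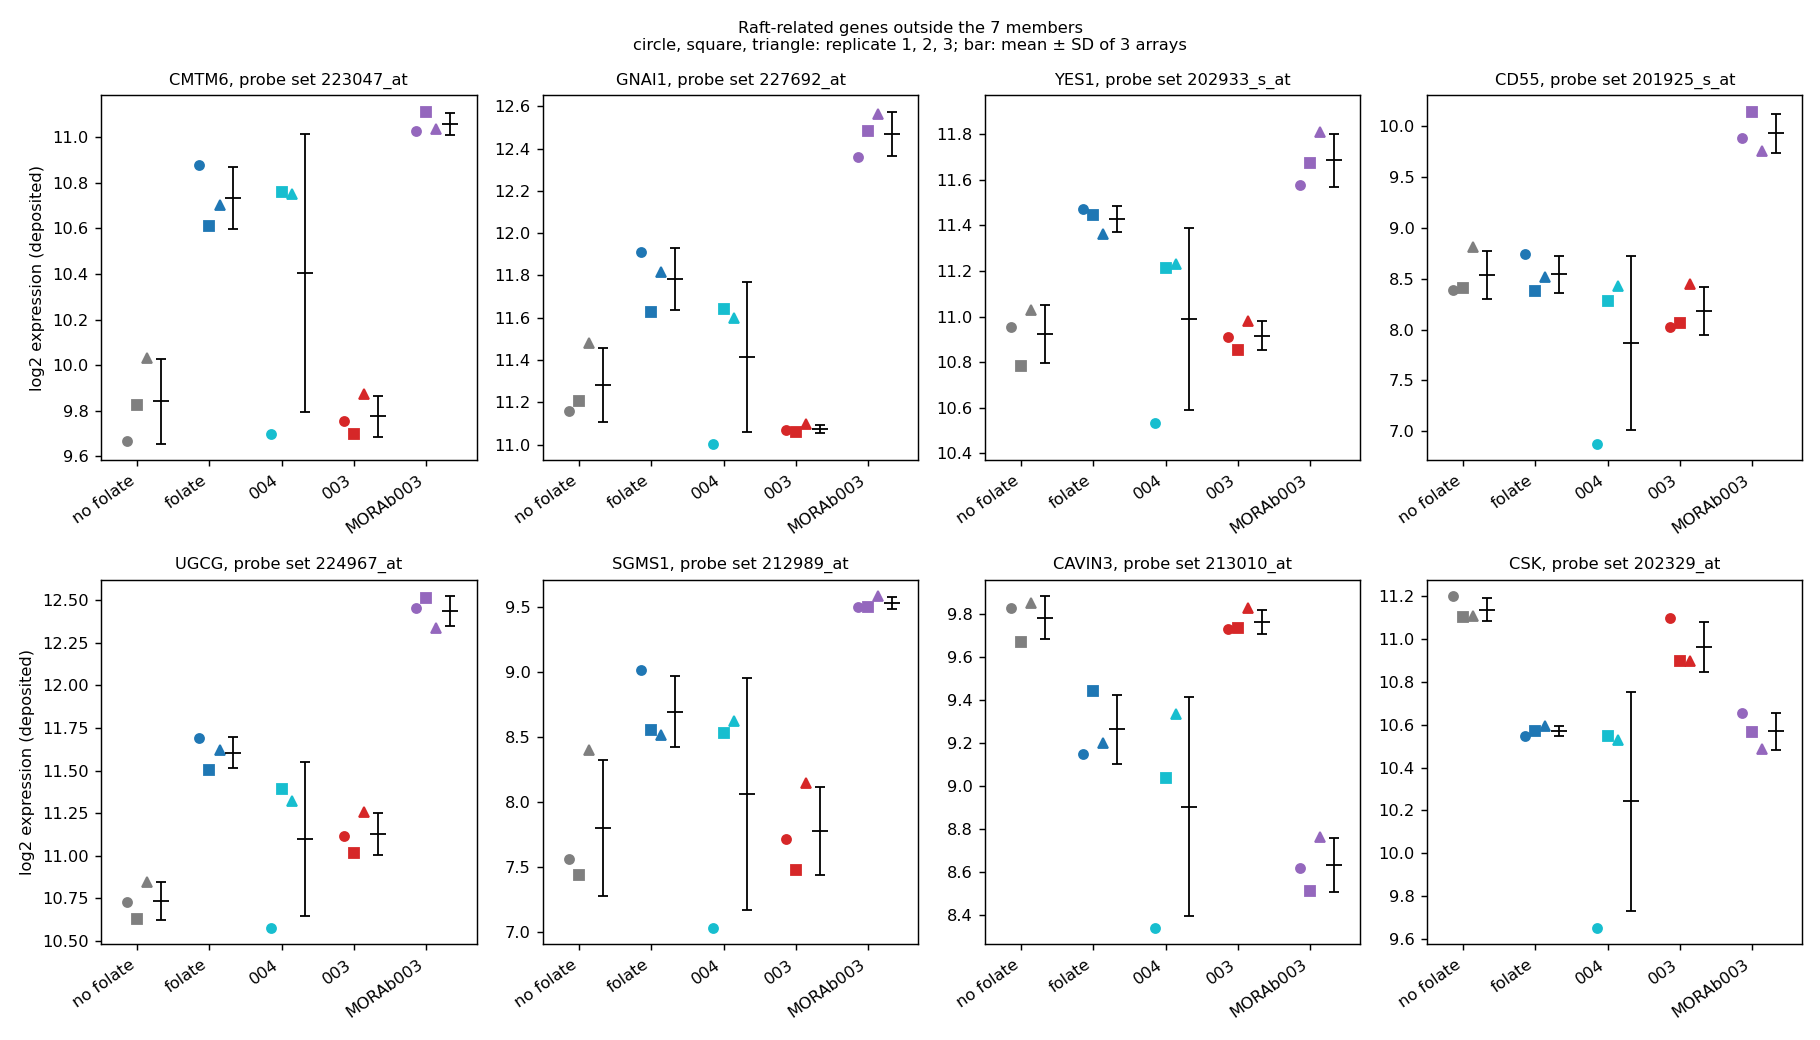
Deposited log2 expression of 8 raft-related genes outside the 7 members in each array; symbols mark replicates 1 to 3, bars the mean ± SD of 3 arrays, and each panel has its own axis range. CMTM6, GNAI1, YES1, CD55, UGCG and SGMS1 are highest in MORAb003, CAVIN3 has its lowest mean there, CSK is highest without folate, and replicate 1 of 004 is the lowest array of its extract in all 8 panels.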

How the data were processed

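The authors deposited log2 expression per probe set for 15 arrays, per the table's values (4.00 to 15.5; array medians 6.53 to 6.67). How they summarised and normalized the arrays is not given in the sources used. No further normalization was applied to these log2 values. Trizol served for RNA extraction and biotin for the cRNA label, per the labels' protocols. Of 54675 probe sets, 62 controls were left out, and 41091 carried 1 gene symbol, 1801 several and 11721 none; Entrez identifiers matched RefSeq for 41037. Probe sets with a mean of at least the median (log2 6.60) in at least 1 extract were tested, 30127 in all.

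limma 3.58.1 (lmFit and eBayes, R 4.3.3) fitted 5 extract means to all arrays with 10 residual degrees of freedom. Calls needed a Benjamini-Hochberg adjusted p under 0.05 and at least 1.5-fold. The p-values rest on 3 aliquots of 1 extract. The number of arrays, and 1 culture per condition, limits the precision. A second limma fit used extract means with no fold minimum. The first fit was tested on simulated data, which cannot show how separate cultures would vary, and no result here rests on it. Members and lists were chosen with earlier results of these data known. All member probe sets and FOLR1 were named, up to 3 called genes with the largest difference per list and comparison, list genes as uncalled examples, and the 5 genes closest in pattern to MAL, CAV1 and LYN. Alternatives were quantile normalization, other filters and fold minimums, other probe set rules, blocks, subsets of arrays and each array left out.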

Additional observations from a re-analysis of the deposited data

Results flagged for a closer look

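Both probe sets that carried the members' calls with all arrays differed between the antibody cultures. CAV2 203323_at was 1.04 lower in the 003 extract than in MORAb003 (-1.04 on the log2 scale, adjusted p = 0.00157 with limma), with the 3 arrays of 003 below and the 3 of MORAb003 above the folate arrays. LYN 202626_s_at was 0.90 higher in 003 than in MORAb003 (adjusted p = 0.00061), and all 3 MORAb003 arrays lay below all 3 of 003. These tests compare 2 RNA extracts of 1 culture each, and the genes' other probe sets were not called. Both other LYN probe sets had the opposite sign (-0.30 at 202625_at and -0.08 at 210754_s_at), and of the other CAV2 probe sets 213426_s_at had the opposite sign (0.22) and 203324_s_at the same (-0.58).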

How the results depend on the processing

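The count of member probe sets called between no folate and folate, 1 as reported, was 0 with no filter, a 2-fold minimum, the first array date only, 1 probe set per gene or the mean of a gene's probe sets, and 2 with quantile normalization or no fold minimum. For MORAb003 against 004, 2 as reported, it was 1 with a 2-fold minimum, the first date only or 1 probe set per gene, 0 with only the 6 arrays compared or the mean of probe sets, and 5 with no fold minimum. For MORAb003 against folate, 1 as reported, it was 0 with the first date only or the mean of probe sets. For 003 against MORAb003, 2 as reported, it was 1 with a 2-fold minimum or 1 probe set per gene, 0 with the mean of probe sets and 5 with no fold minimum. Opposed probe sets of CAV2 and of LYN cancel in that mean. For 003 against 004, 003 against folate and 004 against folate the count was 0 under every alternative run, as it was on extract means. The shares of all probe sets called under these alternatives are not given here, so the counts are not read against a background.

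Leaving out 1 array at a time gave 0 to 1 for no folate against folate, 2 to 6 for MORAb003 against 004, 1 to 1 for MORAb003 against folate and 2 to 4 for 003 against MORAb003. The first was 0 without replicate 1 of no folate, replicate 1 or 2 of folate, or any 1 array of 003 or MORAb003. The second was 6 without replicate 2 of 004, 5 without replicate 3 of 004 and 3 without replicate 1 of 004, and the last was 4 without replicate 1 of MORAb003. For the second, the share of all probe sets called was 20.1% with all arrays and 13.1% without replicate 1 of 004. Shares without each of the other arrays are not given here, so the 6, 5 and 4 are not read against a background. Correlations between the deviations of same-numbered arrays ran from -0.541 to 0.496. They were over 0.1 in 2 of 10 pairs for replicate 1, 3 of 10 for replicate 2 and 3 of 10 for replicate 3. With these mixed signs the numbers were not used to pair the arrays in the main fit. The numbers do follow the array date, with replicates 1 and 2 on the first and replicate 3 on the second. The replicate block left the counts at 1, 0, 0, 2, 1, 2 and 0, and CAV2 203323_at without folate at an adjusted p of 0.048.

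No called member difference reversed. Over all member differences the sign changed in 58 of 1215 values under other alternatives and in 37 of 1561 with an array left out. List counts moved in 193 of 1134 values. The second date, with 1 array per extract, gave values and no test. With 3 aliquots of 1 extract the arrays limit what small differences can show, and dim probe sets near the median are the least certain.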
